A study of Homo sapiens with 6 samples.

Results

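The small nucleolar RNA (snoRNA) clusters SNORD116 and SNORD115 on human chromosome 15 were followed across 6 RNA libraries, together with the genes of the transcription unit that carries them. Every row of the expression table whose symbol starts with SNORD116- or SNORD115- was taken, and SNRPN, SNURF, SNHG14, IPW and UBE3A were added. This gave 83 of 59151 rows: 30 SNORD116 copies, 48 SNORD115 copies and 5 host region genes. The set was chosen by symbol, but after SNORD116-30 had been selected on its FPKM difference between knockdown and scramble libraries. Values and calls of the comparisons with scramble are therefore given below as a description that supports nothing, and the test that bears on the members is that of the hairpins against each other, which uses no scramble level. The estimate of spread in that test is shared with the scramble comparisons, so for SNORD116-30 it is not free of that selection.

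All libraries came from forebrain neuron progenitor cells grown to day 26 from the human embryonic stem cell line H9. The control group expressed a scramble hairpin and is labelled as wild type. The other groups expressed shRNA1 or shRNA2, hairpins directed at circRTN4(2,3), a circular RNA with RTN4 sequence, and are labelled as knockdown. Each group had 2 libraries of ribosomal RNA-depleted total RNA. The labels do not say whether the replicates of a group were separate cultures, and the p-values below thus reflect library-to-library spread that may be technical only.

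SNORD116 and SNORD115 are box C/D snoRNAs, a class that usually guides methylation of ribosomal RNA after being cut from introns. Their copies lie in tandem within introns of a long host transcript, SNHG14, that starts near SNURF-SNRPN and is made from the paternal chromosome only. Loss of the paternal copies of this region is the cause of Prader-Willi syndrome. In neurons the host transcript runs on across UBE3A on the opposite strand, and the paternal UBE3A copy is then silent. SNORD115 carries a stretch complementary to the messenger RNA of the serotonin receptor 2C, HTR2C, whereas targets of SNORD116 are not firmly known.

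The SNORD116 copies lay at chr15:25051477-25108352 and the SNORD115 copies at chr15:25170723-25269858 (GENCODE v29, GRCh38, plus strand), each cluster in the order of its copy numbers. All 78 copies were single-exon snoRNA genes. Of these, 7 of 30 SNORD116 copies and 4 of 48 SNORD115 copies overlapped an annotated SNHG14 exon, and the others lay between its exons. SNORD116-30 was the last SNORD116 copy, at chr15:25108268-25108352, and overlapped no SNHG14 exon. SNRPN spans chr15:24823637-24978723 and SNURF chr15:24954986-24977850 on the plus strand, so that reads of these overlapping genes cannot be separated with certainty. SNHG14 spans chr15:24978583-25419462 on the plus strand and UBE3A chr15:25333728-25439056 on the minus strand. Whether strand was used in counting is not given in the sources used here, so reads of UBE3A and SNHG14 cannot be told apart where they overlap. IPW, a long noncoding RNA between the clusters, lies at chr15:25116545-25122476 in RefSeq GRCh38.p14.

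The sequences below, from GENCODE v29 transcripts and written 5′ to 3′, show how SNORD116-30 differs from the copies whose values are described next. Capitals mark box C, sought as TGATGA within the first 20 bases, and box D, sought as CTGA within the last 20 bases, on the transcript strand only. SNORD116-1 stands for copies 1 to 9, SNORD116-18 is the copy with the highest level, and SNORD116-17 and SNORD116-19 share a single sequence.
SNORD116-1: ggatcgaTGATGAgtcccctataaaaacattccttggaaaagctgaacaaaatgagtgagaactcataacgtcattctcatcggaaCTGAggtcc
SNORD116-18: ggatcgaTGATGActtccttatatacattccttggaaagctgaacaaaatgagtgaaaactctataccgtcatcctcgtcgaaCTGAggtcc
SNORD116-17 and SNORD116-19: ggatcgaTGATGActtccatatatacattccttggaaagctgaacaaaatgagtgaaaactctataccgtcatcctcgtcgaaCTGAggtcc
SNORD116-27: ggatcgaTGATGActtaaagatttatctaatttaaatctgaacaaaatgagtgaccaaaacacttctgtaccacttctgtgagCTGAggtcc
SNORD116-29: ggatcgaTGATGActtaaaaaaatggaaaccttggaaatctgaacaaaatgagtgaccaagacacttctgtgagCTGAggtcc
SNORD116-30: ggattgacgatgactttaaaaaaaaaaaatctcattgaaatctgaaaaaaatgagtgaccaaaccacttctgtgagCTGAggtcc
In SNORD116, TGATGA was found in 28 of 30 copies and CTGA in 30 of 30. The copies without TGATGA were SNORD116-28 and SNORD116-30. SNORD116-30 also held a run of 12 A bases, the longest among the 30 copies. Its closest relative was SNORD116-29, at 84.7% identity, against a median closest identity of 97.4% over the 30 copies. Among 197 other SNORD genes, 61.4% held TGATGA and 95.4% held CTGA in the same windows.

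In SNORD115, capitals mark the longest stretch that is a perfect complement of a GENCODE v29 HTR2C transcript. SNORD115-11 is shown because SNORD115-29, SNORD115-36 and SNORD115-43 have the same sequence, SNORD115-8 because it had the lowest difference between the hairpins, and SNORD115-45 and SNORD115-46 because they had the highest levels.
SNORD115-11: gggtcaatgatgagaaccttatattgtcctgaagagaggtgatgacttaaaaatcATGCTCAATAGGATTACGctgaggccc
SNORD115-8: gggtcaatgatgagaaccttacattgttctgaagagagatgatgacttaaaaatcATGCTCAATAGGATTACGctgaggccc
SNORD115-20: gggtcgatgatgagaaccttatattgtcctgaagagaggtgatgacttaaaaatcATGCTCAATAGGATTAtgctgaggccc
SNORD115-45: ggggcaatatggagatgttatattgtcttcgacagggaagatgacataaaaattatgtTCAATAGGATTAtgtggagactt
SNORD115-46: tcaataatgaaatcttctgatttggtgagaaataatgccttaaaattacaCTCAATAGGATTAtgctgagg
The complement was 18 bases long in 29 of 48 SNORD115 copies, with the sequence ATGCTCAATAGGATTACG. It was 16 bases in SNORD115-20, 13 bases in SNORD115-46 and 12 bases in SNORD115-45. In SNORD116 the longest complement was 9 to 11 bases, and in the 197 other SNORD genes it was 7 to 13 bases. TGATGA was found in 42 of 48 SNORD115 copies and CTGA in 45 of 48, and SNORD115-45 held neither in these windows. The 2 copies with the highest levels were among the most diverged. SNORD115-45 was 74.4% identical to its closest copy and SNORD115-46 was 72.0%, against a median of 98.8%. Not every diverged copy was high. The most diverged, SNORD115-47 (69.8%), had levels pooled by group of 0.470 FPKM in scramble, 0.0361 in shRNA1 and 0.569 in shRNA2.

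Levels are given as FPKM, fragment numbers scaled by gene length and library total. They do not separate reads of a snoRNA cut from its intron from reads of the uncut host transcript. The total reads behind the values ranged from 46634855 in scramble replicate 1 to 83629504 in shRNA2 replicate 1. With annotated lengths of 71 to 104 bases, FPKM could be turned back into read numbers for all 78 copies. A SNORD116 value rested on a median of 49.75 reads and at most 446.5, and a SNORD115 value on a median of 4.5 reads and at most 38. In SNORD116, 96 of 180 read numbers (53.3%) were not whole but contained fractions of a read, and in SNORD115 40.3% of 288 were not. RTN4, whose row counts linear and circular RNA together, had 40.3 and 38.5 FPKM in scramble, 34.2 and 34.7 in shRNA1 and 31.2 and 31.3 in shRNA2; the circular RNA itself was not measured in these values. Rows of small structured RNAs took 30.2% (replicate 1) and 41.6% (replicate 2) of all FPKM in scramble, and 34.9% to 36.7% with either hairpin. The scramble libraries thus lay on either side of the others in small RNA content, and the part of this in the results below was not tested.

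All 30 SNORD116 copies were detected in all 6 libraries. Their mean levels over the 6 libraries ranged from 1.15 FPKM for SNORD116-10 to 51.8 FPKM for SNORD116-18, with a median of 7.33 FPKM. The 5 highest copies were numbers 13 and 18 to 21, in the middle of the cluster. SNORD116-18 had 56.6 and 56.6 FPKM in scramble, 44.2 and 48.8 in shRNA1 and 56.8 and 47.4 in shRNA2. Both shRNA1 libraries were below both scramble libraries, and the shRNA2 libraries lay apart, one above both scramble libraries and the other between the shRNA1 libraries. SNORD116-19 followed with 30.04 and 51.3 FPKM in scramble, 43.4 and 41.9 in shRNA1 and 47.8 and 41.9 in shRNA2. Its scramble replicates were the lowest and the highest of all 6 libraries. SNORD116-21 had 22.6 and 26.6 FPKM in scramble, 23.2 and 26.2 in shRNA1 and 27.7 and 27.0 in shRNA2, so that the shRNA2 libraries were the highest by a small margin. SNORD116-20 had 20.1 and 24.02 FPKM in scramble, 25.5 and 22.5 in shRNA1 and 24.9 and 27.8 in shRNA2, with overlap between neighbouring groups. SNORD116-13 had 18.7 and 20.5 FPKM in scramble, 19.6 and 16.1 in shRNA1 and 18.3 and 23.6 in shRNA2, and all groups overlapped. In the order of mean levels, SNORD116-18 (51.8 FPKM) and SNORD116-19 (42.7 FPKM) overlapped in their libraries, as did SNORD116-21 (25.5 FPKM) and SNORD116-20 (24.1 FPKM), whereas the lowest library of SNORD116-19 was above the highest of SNORD116-21.

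**Figure D1:**
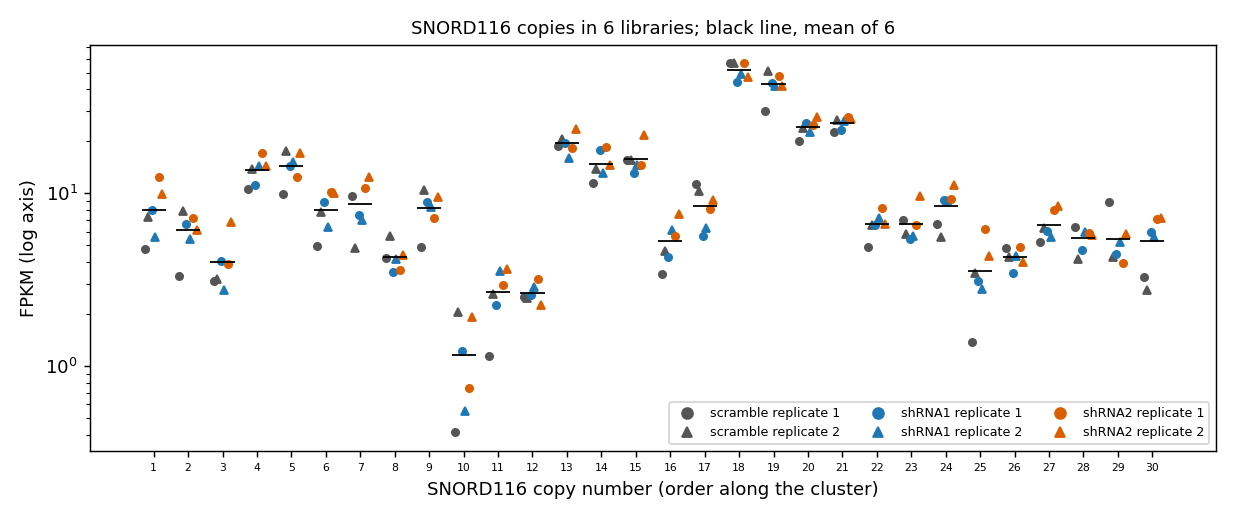
FPKM (log axis) of the 30 SNORD116 copies in order along the cluster, with 1 point per library coloured by group and a black line at the mean of 6 libraries. Copies 18 and 19 stand highest, at means of 51.8 and 42.7 FPKM, copy 10 is lowest at 1.15 FPKM, and in copy 30 the scramble points lie below all hairpin points.

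The 30 copies are commonly split into 3 sequence groups, copies 1 to 9, 10 to 24 and 25 to 30, and the annotated sequences followed this split. Median pairwise identity was 95.8% within copies 1 to 9, 92.4% within copies 10 to 24 and 79.2% within copies 25 to 30. Between groups it ranged from 68.6% to 85.3%. Copies 10 to 24 supplied most of the reads of the cluster. Their summed level, in reads scaled by the library total (RPM), was 21.7 ± 2.41 RPM in scramble, 21.1 ± 0.0425 in shRNA1 and 23.9 ± 0.196 in shRNA2 (SD, n = 2 each). For copies 1 to 9 the sums were 6.51 ± 1.601 in scramble, 6.92 ± 0.269 in shRNA1 and 8.53 ± 0.421 in shRNA2. For copies 25 to 30 they were 2.52 ± 0.286, 2.60 ± 0.115 and 3.27 ± 0.0459. In all 3 groups of copies both shRNA2 libraries were above both scramble and both shRNA1 libraries, whereas both shRNA1 libraries lay between the scramble replicates.

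Summed over all 30 copies, SNORD116 had 28.1 and 33.3 RPM in scramble, 30.7 and 30.5 in shRNA1 and 35.3 and 36.1 in shRNA2. The shRNA2 libraries were above the 4 others, and both shRNA1 libraries lay between the scramble replicates. With 2 libraries a group, the smallest 2-sided p of an exact permutation test is 0.333, so these sums are given as values. Beside the summed FPKM of the other SNORD rows, SNORD116 came to 9.23% and 6.15% in scramble, 6.83% and 7.76% in shRNA1 and 9.19% and 8.69% in shRNA2. On that scale shRNA2 was still above shRNA1, but scramble replicate 1 was the highest of all libraries. SNORD115 had 2.46 and 3.66 RPM in scramble, 4.62 and 3.88 in shRNA1 and 4.28 and 3.86 in shRNA2, so that the scramble libraries were the lowest and the hairpin groups overlapped. In these sums the clusters did not order the groups alike: shRNA2 alone was highest for SNORD116, and both hairpins were above scramble for SNORD115. The SNORD115 margin was small, at 3.66 RPM in scramble replicate 2 against 3.86 in shRNA2 replicate 2, and was not tested. In a bulk sample, a change in the number of cells that make an RNA and a change in RNA per cell cannot be told apart.

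SNORD115 was far lower than SNORD116 in these cells. Mean levels ranged from 0.180 FPKM for SNORD115-28 to 3.91 FPKM for SNORD115-45, with a median of 0.806 FPKM. Of 288 values, 23 in 19 rows were 0, whereas none of the 180 SNORD116 values was 0. SNORD115-45 had 1.85 and 3.20 FPKM in scramble, 4.80 and 3.93 in shRNA1 and 3.84 and 5.87 in shRNA2, with both scramble libraries below the 4 hairpin libraries. SNORD115-46 had 3.47 and 3.01 FPKM in scramble, 3.85 and 4.49 in shRNA1 and 4.21 and 2.70 in shRNA2, and shRNA2 spanned both scramble libraries. These copies, which carry only a shortened HTR2C complement in the sequences above, lay at about the level of the low SNORD116 copies. SNORD115-32 had 1.44 and 3.24 FPKM in scramble, 2.15 and 1.48 in shRNA1 and 1.82 and 1.602 in shRNA2, all hairpin libraries falling between the scramble replicates. SNORD115-20 had 2.48 and 1.18 FPKM in scramble, 2.22 and 2.02 in shRNA1 and 1.896 and 1.83 in shRNA2. SNORD115-4 had 1.05 and 1.501 FPKM in scramble, 3.92 and 0.855 in shRNA1 and 1.17 and 2.44 in shRNA2, a spread within shRNA1 larger than any difference between groups. HTR2C, the receptor gene that SNORD115 is known for, was itself low, from 0.539 to 1.10 FPKM over the 6 libraries with a mean of 0.844 FPKM, and fell below the filter used for testing.

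**Figure D2:**
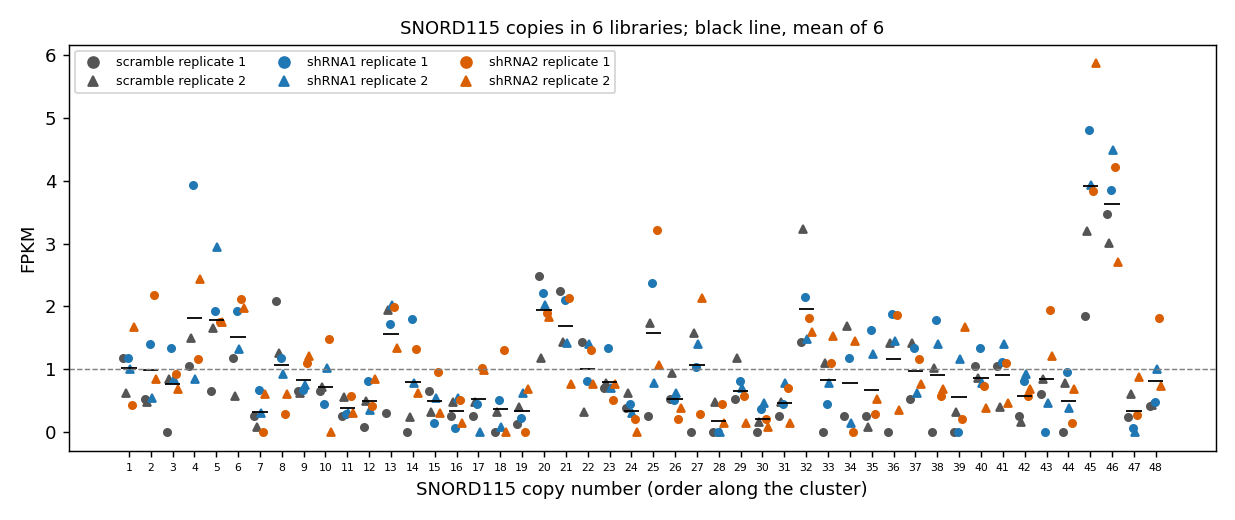
FPKM of the 48 SNORD115 copies in order along the cluster, with 1 point per library coloured by group, a black line at the mean of 6 libraries and a dashed line at the filter of 1 FPKM. Copies 45 and 46 stand apart from the rest at means of 3.91 and 3.62 FPKM, and most other copies lie near or under the dashed line.

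Spread between replicates was larger for these short rows than for genes in general. Among rows above the filter, the median residual SD of log2(FPKM + 1) was 0.234 for SNORD116, 0.405 for SNORD115 and 0.0656 for the host region genes, against 0.0869 for all 18162 tested genes. Other box C/D snoRNAs (0.258, 163 rows) and box H/ACA snoRNAs (0.257, 119 rows), which guide pseudouridylation, had a spread similar to that of SNORD116. Within groups, the median replicate SD of SNORD116 was 0.249 in scramble, 0.119 in shRNA1 and 0.177 in shRNA2.

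**Figure D3:**
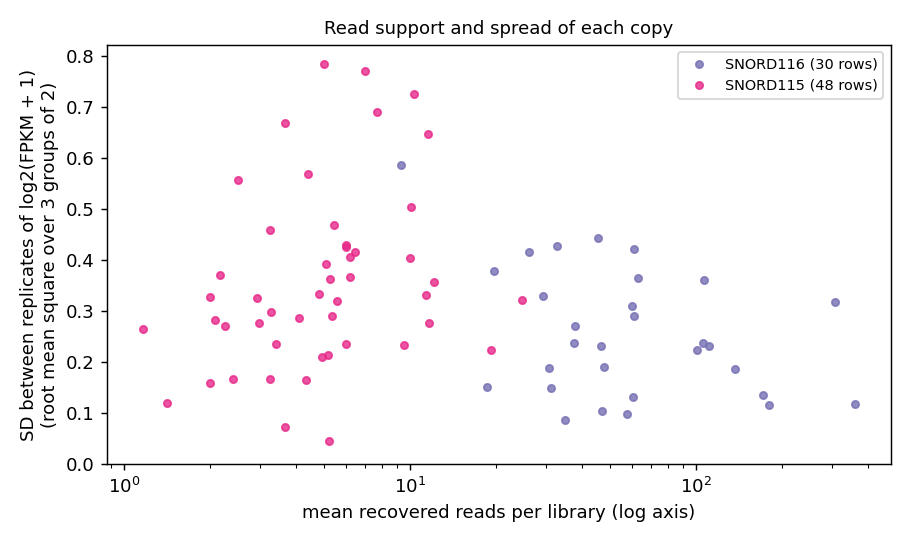
SD between replicates of log2(FPKM + 1), as a root mean square over the 3 groups of 2 libraries, against the mean number of recovered reads per library (log axis), with 1 point for each of 30 SNORD116 and 48 SNORD115 copies. SNORD115 copies lie at 1.17 to 24.7 reads, SNORD116 copies at 9.33 to 361 reads, and the largest SD, 0.786, belongs to a SNORD115 copy.

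Copies with identical annotated sequence differed in level. SNORD116-17 and SNORD116-19 are the same over 92 bases, yet their mean levels were 8.45 and 42.7 FPKM. SNORD116-17 had 11.3 and 10.3 FPKM in scramble, 5.68 and 6.30 in shRNA1 and 8.06 and 9.11 in shRNA2. Both scramble libraries were thus the highest and both shRNA1 libraries the lowest, without overlap between any groups. Summed over both copies, the level was 3.88 and 5.79 RPM in scramble, 4.61 and 4.53 in shRNA1 and 5.25 and 4.79 in shRNA2. In the sum all 4 hairpin libraries lay between the scramble replicates, so that the order of groups seen in SNORD116-17 was absent from the pair. SNORD116-5 and SNORD116-7 also share a sequence. Their sum was 1.898 and 2.18 RPM in scramble, 2.12 and 2.15 in shRNA1 and 2.24 and 2.87 in shRNA2, with shRNA2 highest. SNORD116-3 and SNORD116-9, the third such pair, gave 0.772 and 1.32 in scramble, 1.26 and 1.08 in shRNA1 and 1.07 and 1.58 in shRNA2, and all groups overlapped. How reads that match several copies were assigned is not given in the sources used here, and its part in the values of single copies was not tested. In SNORD115, 9 of 48 copies had an identical partner.

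Levels of the 5 host region genes lay between 3.17 and 14.5 FPKM. SNRPN, which encodes a protein of spliceosomal particles, had 9.13 and 10.1 FPKM in scramble, 10.2 and 9.90 in shRNA1 and 9.51 and 9.42 in shRNA2. SNURF, a short reading frame on the same upstream transcript, had 13 and 14.5 FPKM in scramble, 14.02 and 13.7 in shRNA1 and 13.3 and 12.7 in shRNA2. In both genes the shRNA2 libraries were below the shRNA1 libraries and inside or near the scramble range. SNHG14, the host of the snoRNAs, had 5.56 and 5.26 FPKM in scramble, 5.84 and 5.80 in shRNA1 and 6.53 and 6.62 in shRNA2. Here the 3 groups did not overlap, and the order was scramble, shRNA1, shRNA2. IPW had 3.76 and 3.17 FPKM in scramble, 3.67 and 3.62 in shRNA1 and 4.31 and 4.09 in shRNA2, with shRNA2 above both other groups. UBE3A, a ubiquitin ligase gene, had 10.2 and 8.49 FPKM in scramble, 9.13 and 9.31 in shRNA1 and 8.84 and 9.39 in shRNA2, and all hairpin libraries lay between the scramble replicates. In these values the noncoding parts SNHG14 and IPW were highest in shRNA2, as was the SNORD116 sum, and the upstream parts SNRPN and SNURF were not. This did not hold for all downstream parts. The SNORD115 sum, downstream of IPW, was highest in shRNA1 replicate 1 (4.62 RPM), with 4.28 and 3.86 RPM in shRNA2.

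**Figure D4:**
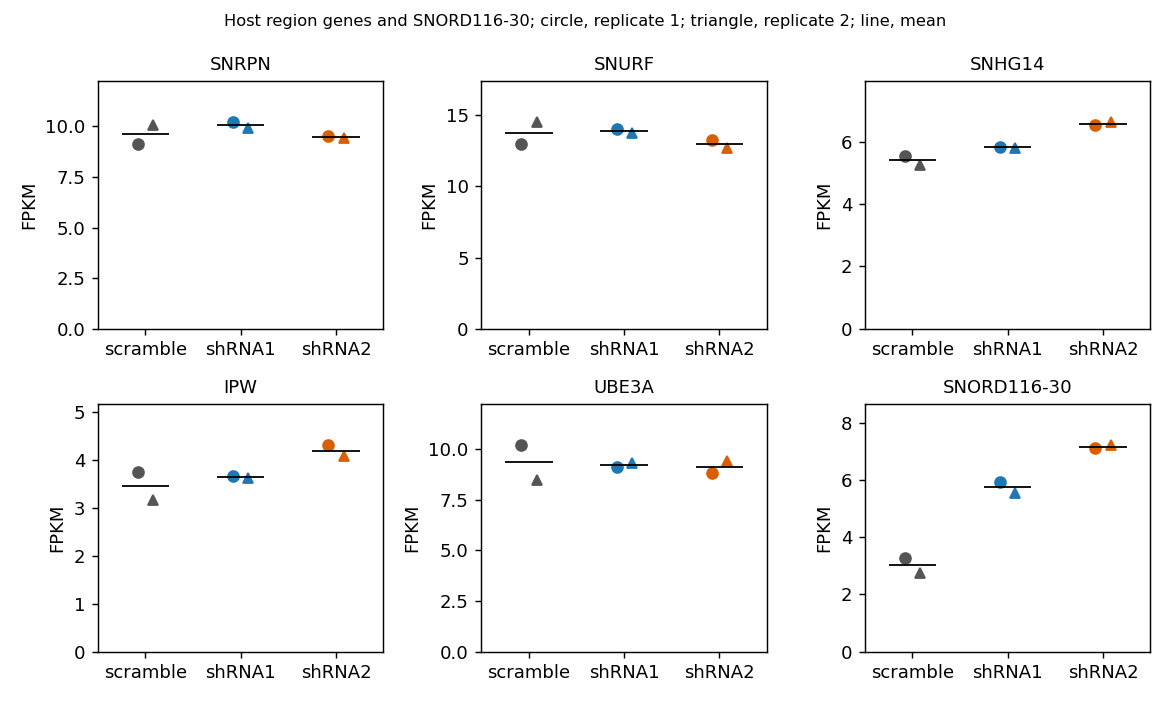
FPKM of SNRPN, SNURF, SNHG14, IPW, UBE3A and SNORD116-30 in each library, by group, with circles for replicate 1, triangles for replicate 2 and a line at the group mean; each axis starts at 0. SNHG14 and SNORD116-30 show 3 groups without overlap in the order scramble, shRNA1, shRNA2, and UBE3A shows no separation.

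shRNA2 was compared with shRNA1 by limma on log2(FPKM + 1) over the 18162 genes whose mean was 1 FPKM or more, which kept all 30 SNORD116 copies, 15 of 48 SNORD115 copies and all 5 host region genes. No member passed an adjusted p of 0.05 in this comparison, nor did any gene (0 of 18162, 0.0%). At an unadjusted p under 0.05 there were 4 of 30 SNORD116 copies, 1 of 15 SNORD115 copies and 1 of 5 host region genes, against 16.1% of all tested genes; for the clusters this is 13.3% and 6.67%. The log2 difference was above 0 for 26 of 30 SNORD116 copies, 3 of 15 SNORD115 copies and 2 of 5 host region genes. Shares above 0 were 33.1% of all tested genes, 49.1% of other box C/D rows and 63.0% of box H/ACA rows. The median log2 difference was 0.16 for SNORD116 and -0.12 for the tested SNORD115 copies, beside -0.00018 for other box C/D rows, 0.07 for box H/ACA rows and -0.06 for all tested genes. For 11 of 30 SNORD116 copies both shRNA2 libraries were above both shRNA1 libraries, and for 0 of 30 they were below. The shares above were 16.6% of all tested genes, 16.6% of other box C/D rows and 26.1% of box H/ACA rows. The shares below were 46.6%, 11.7% and 10.1%. The 33 SNORD115 copies under the filter were not tested. Copies of a cluster share a host transcript and, in part, reads, so that they are not independent counts.

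The SNORD116 copies with the largest difference between the hairpins were SNORD116-25, SNORD116-1 and SNORD116-7. SNORD116-25 had 1.37 and 3.45 FPKM in scramble, 3.10 and 2.78 in shRNA1 and 6.23 and 4.32 in shRNA2. Its log2 difference was 0.66 ± 0.32 (SE; limma adjusted p = 0.382). SNORD116-1 had 4.75 and 7.28 FPKM in scramble, 8.01 and 5.58 in shRNA1 and 12.5 and 9.86 in shRNA2, a log2 difference of 0.65 ± 0.24 (limma adjusted p = 0.294). SNORD116-7 had 9.62 and 4.81 FPKM in scramble, 7.51 and 7.03 in shRNA1 and 10.7 and 12.4 in shRNA2, a log2 difference of 0.60 ± 0.28 (limma adjusted p = 0.369). In all 3 copies the shRNA2 libraries were the highest of the 6, and SNORD116-7 shares its sequence with SNORD116-5. SNORD116-17 differed by 0.45 ± 0.087 (limma adjusted p = 0.149), with the caution about its twin copy given above. Among the most abundant copies, the log2 difference was 0.16 ± 0.10 for SNORD116-18 and 0.07 ± 0.25 for SNORD116-19, neither of which passed the test (limma adjusted p = 0.496 and 0.914).

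The SNORD115 copies at the other end were SNORD115-8, SNORD115-36 and SNORD115-5. SNORD115-8 had 2.09 and 1.26 FPKM in scramble, 1.18 and 0.932 in shRNA1 and 0.292 and 0.610 in shRNA2, in all 36 reads over 6 libraries. The groups did not overlap and scramble was the highest, which was opposite to the SNORD115 sum. Its log2 difference between the hairpins was -0.51 ± 0.19 (limma adjusted p = 0.296). SNORD115-36 had 0 and 1.42 FPKM in scramble, 1.88 and 1.45 in shRNA1 and 1.87 and 0.355 in shRNA2, a log2 difference of -0.43 ± 0.53 (limma adjusted p = 0.718). SNORD115-5 had 0.654 and 1.66 FPKM in scramble, 1.93 and 2.95 in shRNA1 and 1.75 and 1.75 in shRNA2, a log2 difference of -0.31 ± 0.26 (limma adjusted p = 0.599). A value of 1 FPKM at these lengths stands for only a few reads, and differences of this size were not resolved.

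For the host region genes the same test gave a log2 difference of 0.15 ± 0.051 for SNHG14 (limma adjusted p = 0.264) and 0.16 ± 0.079 for IPW (limma adjusted p = 0.380). It gave -0.08 ± 0.061 for SNRPN, -0.09 ± 0.066 for SNURF and -0.02 ± 0.090 for UBE3A, with limma adjusted p-values of 0.569, 0.546 and 0.948. None of the 5 passed the test, and under quantile normalization the differences of SNRPN (0.022), SNURF (0.014) and UBE3A (0.082) were above 0. The 95% interval of the UBE3A difference ran from -0.24 to 0.21.

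This test shares its estimate of spread with the scramble libraries, which varied more between replicates than the hairpin libraries did. When limma was fitted to the 4 hairpin libraries alone, a choice made after the values had been seen, 957 of 18162 genes passed (5.27%), 155 of them higher in shRNA2 (0.853%) and 802 lower (4.42%). Among the members, 2 of 30 SNORD116 copies passed, both higher in shRNA2, and none of the 15 SNORD115 copies or 5 host region genes did. At an unadjusted p under 0.05 in that limma fit there were 6 of 30, 1 of 15 and 2 of 5, against 31.6% of all tested genes. The SNORD116 copies past the adjusted threshold were SNORD116-27 (log2 difference 0.43 ± 0.053, limma adjusted p = 0.0460) and SNORD116-7 (0.60 ± 0.081, limma adjusted p = 0.0480). SNORD116-27 had 5.25 and 6.27 FPKM in scramble, 6.07 and 5.58 in shRNA1 and 7.95 and 8.43 in shRNA2. Its 95% exact Poisson intervals, which cover counting error only, overlapped, ending at 7.18 FPKM in shRNA1 and starting at 6.82 in shRNA2. For SNORD116-7 the intervals did not overlap, ending at 8.74 FPKM in shRNA1 and starting at 9.95 in shRNA2. The limma trend in spread came from all tested genes (median residual SD 0.0869, against 0.234 for SNORD116). SE and adjusted p-values of these short rows may thus be too small in either fit, which was not tested. SNORD116-30 (0.28 ± 0.041, limma adjusted p = 0.0504) and SNHG14 (0.15 ± 0.029, limma adjusted p = 0.0633) lay just beyond the threshold. Leaving out either scramble library instead left the log2 differences of SNORD116-27 (0.43), SNORD116-7 (0.60) and SNORD116-30 (0.28) as they were. The scramble level does not enter these differences. SNORD116-30 had been selected on its difference from scramble, so its spread is not free of that selection.

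SNORD116-30, from which the set arose, had 3.28 and 2.74 FPKM in scramble, 5.93 and 5.55 in shRNA1 and 7.10 and 7.21 in shRNA2. These values stand for 13 and 18 reads in scramble, 41.5 and 37 in shRNA1 and 50.5 and 49 in shRNA2. The scramble libraries were the lowest and the shRNA2 libraries the highest, without overlap between any groups. Pooled by group, the level was 2.95 FPKM in scramble (95% exact Poisson interval 2.00 to 4.18), 5.74 in shRNA1 (4.54 to 7.16) and 7.16 in shRNA2 (5.82 to 8.71). The intervals cover counting error only, for read numbers that include fractions and for reads that were not marked as single molecules. Between the hairpins the log2 difference was 0.28 ± 0.081 (95% interval 0.07 to 0.48; limma adjusted p = 0.233). The SD between its replicates, 0.0860 as a root mean square over the groups, was the lowest of the 30 SNORD116 copies. The call against scramble, known when the set was proposed, used the same spread. This SE and interval are thus not free of that choice, and the counting intervals of shRNA1 and shRNA2 overlapped.

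Against scramble, SNORD116-30 differed by 0.89 ± 0.070 on the log2 scale for the mean of both hairpins, by 0.75 ± 0.081 for shRNA1 and by 1.03 ± 0.081 for shRNA2. These comparisons share the scramble libraries, and they hold the difference for which the set was proposed. In the limma fit it was the 1 member past an adjusted p of 0.05 for the mean of both hairpins, a call that was known when the set was proposed and is no evidence, where 15 of 18162 genes were called (0.0826%), 1 of them higher (0.00551%) and 14 lower (0.0771%). It was likewise the 1 member called for shRNA2 against scramble (114 genes, 0.628%, of which 34 higher, 0.187%, and 80 lower, 0.44%), and no member was called by limma for shRNA1 against scramble (6 genes, 0.033%, all lower), where 6 of 50 tested members and 8.97% of all genes had an unadjusted p under 0.05. Without scramble replicate 1, the difference for the mean of both hairpins was 0.99, and without scramble replicate 2 it was 0.79. The scramble level then rested on a lone library with the few reads given above. The SE given for this row carry the caution stated for the hairpin comparison. Scaled to other box C/D rows, the difference was 0.84 ± 0.10. Its neighbour and closest relative SNORD116-29 ran the other way, with 8.96 and 4.27 FPKM in scramble, 4.43 and 5.25 in shRNA1 and 3.94 and 5.81 in shRNA2, a log2 difference of -0.32 ± 0.28 for the mean of both hairpins. The scramble replicates of SNORD116-29 differed more than any pair of group means.

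Over the tested members, SNORD116-30 included, the knockdown difference from scramble was above 0 for 23 of 30 SNORD116 and 12 of 15 SNORD115 copies. Beside these, it was above 0 for 36.9% of all tested genes, 55.2% of other box C/D rows and 63.0% of box H/ACA rows. The median log2 difference was 0.19 for SNORD116 and 0.34 for SNORD115, beside 0.05 for other box C/D rows, 0.06 for box H/ACA rows and -0.03 for all tested genes. For shRNA1 against scramble the SNORD116 median was 0.08, and it was -0.10 without scramble replicate 1, so its direction rested on that library. For shRNA2 against scramble it was 0.26, and 0.16 without scramble replicate 1. All 4 hairpin libraries were above both scramble libraries for SNORD116-22, SNORD116-24 and SNORD116-30 (3 of 30, against 5.87% of all tested genes) and below them for SNORD116-17 (1 of 30, against 12.6%). Among the 15 tested SNORD115 copies they were above for SNORD115-5, SNORD115-6 and SNORD115-45 (3 of 15) and below for SNORD115-8 (1 of 15). The shares of all tested genes beside these are again 5.87% and 12.6%. The largest differences after SNORD116-30 were those of SNORD115-45 (0.68 ± 0.22) and SNORD116-25 (0.61 ± 0.28), and the lowest were those of SNORD115-8 (-0.62 ± 0.16) and SNORD116-17 (-0.53 ± 0.075).

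**Figure D5:**
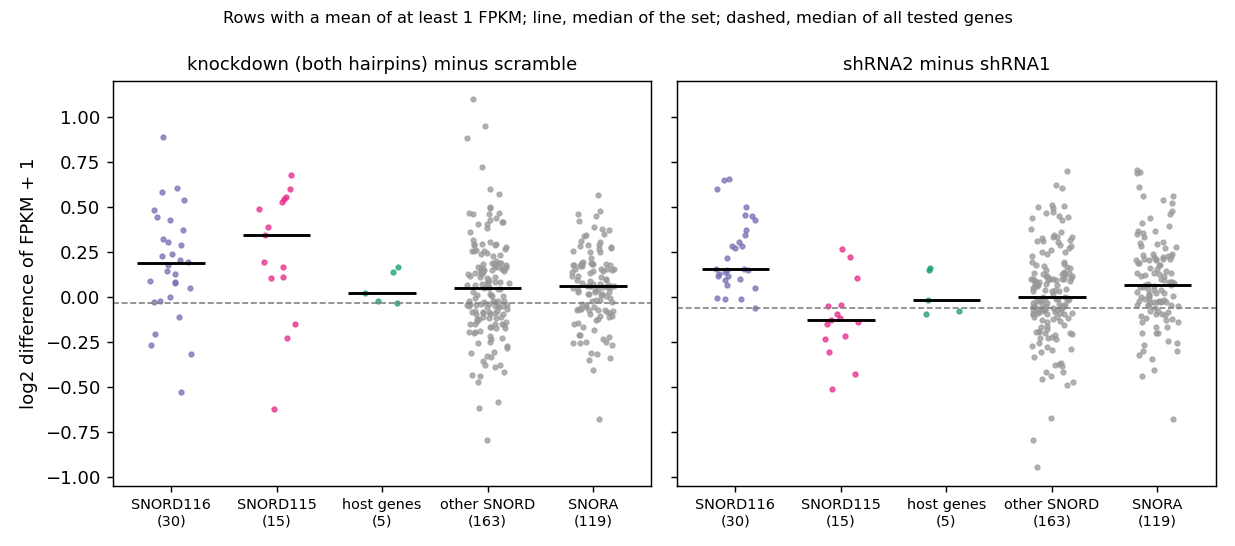
Log2 differences of FPKM + 1 for rows above the filter, for the mean of both hairpins minus scramble (left) and shRNA2 minus shRNA1 (right), with 1 point per row, a black line at the median of each set and a dashed line at the median of all tested genes. SNORD116 medians lie above 0 in both panels (0.19 and 0.16), and the SNORD115 median is 0.34 on the left and -0.12 on the right.

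Neighbouring genes of the same region, not all of them imprinted, were counted from a list of 28. Of these, 26 were in the table and 16 were above the filter. None of the 16 passed limma's test at an adjusted p of 0.05 in any of the 4 comparisons. At an unadjusted p under 0.05 there were 4 of 16 between the hairpins (16.1% of all tested genes), 2 for knockdown (13.8%), 1 for shRNA1 (8.97%) and 6 for shRNA2 against scramble (19.2%). Of the 16, 8 had a log2 difference above 0 for shRNA2 against shRNA1, beside 33.1% of all tested genes. The median over the 16 was -0.0051, beside 0.16 for SNORD116 and -0.06 for all tested genes. The mean over 6 libraries was 18.03 FPKM for SNORD107, 27.8 for SNORD64 and 31.5 for SNORD108, other snoRNAs of the SNHG14 unit. These levels were similar to those of the higher SNORD116 copies, whereas SNORD109A, at 8.90 FPKM, was nearer the SNORD116 median of 7.33 FPKM. SNORD109A, which lies upstream of SNORD116 and has a near-identical copy, SNORD109B, had 8.16 and 7.25 FPKM in scramble, 8.06 and 8.43 in shRNA1 and 11.96 and 9.52 in shRNA2, with shRNA2 highest as in the SNORD116 sum (0.34 ± 0.11 between the hairpins, limma adjusted p = 0.270). The gene with the smallest p-value between the hairpins was NIPA1, a magnesium transporter gene of the region that is not imprinted (-0.42 ± 0.062, limma adjusted p = 0.128).

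Box C/D snoRNAs are packaged by a set of core proteins and assembly factors. Of 14 listed genes of these proteins 12 were tested, and 0 of 12 were called in any of the 4 comparisons (adjusted p over all genes, limma). At an unadjusted p under 0.05 in limma's fit there were 0 of 12 between the hairpins, 2 for knockdown, 0 for shRNA1 and 4 for shRNA2 against scramble, beside 16.1%, 13.8%, 8.97% and 19.2% of all tested genes. For shRNA2 against shRNA1, 0 of 12 had a log2 difference above 0, where 33.1% of all tested genes did. FBL, the methyltransferase of the particle, had 9.70 and 12.6 FPKM in scramble, 9.41 and 9.21 in shRNA1 and 7.88 and 7.74 in shRNA2 (-0.23 ± 0.12 between the hairpins, limma adjusted p = 0.399). Both shRNA2 libraries were the lowest for FBL, whereas they were the highest for the SNORD116 sum.

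The other large imprinted snoRNA cluster, SNORD113 and SNORD114 in the DLK1-DIO3 region, is expressed from the maternal chromosome. None of its 33 rows was above the filter. Their summed level was 1.94 to 3.84 FPKM in scramble, 3.39 to 4.35 in shRNA1 and 9.33 to 10.2 in shRNA2, so that both shRNA2 libraries were highest, as for SNORD116. MEG3, a noncoding RNA of that region, was near 0 (mean 0.0818 FPKM). DLK1, the paternally expressed gene there, had 6.81 and 9.33 FPKM in scramble, 12.1 and 11.7 in shRNA1 and 20.4 and 17.96 in shRNA2 (0.64 ± 0.14 between the hairpins, limma adjusted p = 0.177).

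Sums of cell type markers differed between groups along with these values. Over 8 forebrain progenitor markers, the summed level was 209 to 227 FPKM in scramble, 200 in both shRNA1 libraries and 205 to 211 in shRNA2, and over 8 neuron markers it was 337 to 345, 354 to 358 and 306 to 307. The labelled cell type was thus met by markers of both kinds in every library. The sum over 6 pluripotent cell markers was 7.70 to 7.75 FPKM in scramble, 8.86 to 8.94 in shRNA1 and 16.3 in both shRNA2 libraries, the order of groups seen for SNORD116-30 and SNHG14. Sums over 5 choroid plexus markers (7.78 to 8.35, 1.83 to 2.17 and 1.25 to 1.48 FPKM) and over 6 mesenchyme markers (5.65 to 6.41, 1.17 to 1.30 and 0.447 to 0.632 FPKM) ran the opposite way. Over 5 astrocyte markers they were 6.37 to 7.17, 5.68 to 5.87 and 4.57 to 4.67 FPKM. No marker of these lists was at 0 in all libraries, but not all were above the filter. Above it were 8 of 8 progenitor, 6 of 8 neuron and 3 of 6 pluripotent cell markers. For choroid plexus, mesenchyme and astrocyte markers it was 2 of 5, 1 of 6 and 1 of 5. The highest single value was 6.63 FPKM for choroid plexus and 6.87 FPKM for astrocyte markers, beside highest sums of 8.35 and 7.17 FPKM. Differences in such sums may rest on few genes and are not shown for whole lists. The part of these differences in the levels of SNORD116, SNORD115 and SNHG14 was not tested.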

How the data were processed

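Total RNA of 6 libraries in 3 groups of 2 was sequenced after ribosomal RNA depletion, per the labels' protocols. The deposited table gives FPKM made by the authors, with a column per library and a row per gene symbol, per the file headers. The submitters' processing notes name Trimmomatic 0.39, HISAT2 2.1.0, SAMtools 1.9, featureCounts 2.0.1 and the build GRCh38 (hg38). Which annotation was used, whether counting was stranded and how reads matching several copies were treated is not given in the sources used here.

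Members and lists were chosen with earlier results of these data known. No further scaling was applied. Values were used as log2(FPKM + 1) for the 18162 rows with a mean of at least 1 FPKM, so differences of low rows are understated. A model of all groups was fitted in limma 3.58.1 (R 4.3.3) with a mean-variance trend and tested on simulated data. p-values were Benjamini-Hochberg adjusted over all tested genes, and a row was called at an adjusted p under 0.05. Read numbers were recovered as FPKM × annotated length × total reads, and were taken as whole within 0.005 reads. Sequences are GENCODE v29 transcripts; identity is 100% less the edit distance over the longer length. Named with full values were the host region genes, SNORD116-30, the 5 copies with the highest mean in each cluster, members called in any comparison, and the 3 highest and 3 lowest differences between the hairpins and between knockdown and scramble. SNORD116-27, SNORD115-11 and the copies of identical sequence were named after their values or sequences were seen. Alternatives were pseudocounts, filters, scalings, a replicate block, no trend, leaving out each library, and, added after seeing the data, scaling to other box C/D rows and a fit of the hairpin libraries alone. Python 3.11.15, numpy 2.4.6, pandas 2.3.3, scipy 1.17.1 and matplotlib 3.10.9 were used.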

Additional observations from a re-analysis of the deposited data

How the results depend on the processing

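The median log2 difference of SNORD116 between shRNA2 and shRNA1 was above 0 under every alternative run. Under quantile normalization it was 0.27, and the medians for knockdown against scramble and shRNA2 against scramble were 0.29 and 0.39. Leaving out 1 library at a time gave 0.16 to 0.25 between the hairpins, 0.10 to 0.36 for knockdown, -0.10 to 0.24 for shRNA1 against scramble and 0.16 to 0.52 for shRNA2 against scramble. The lone library left in a group is then assumed to vary like the other groups.

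The 1 member called for knockdown against scramble, SNORD116-30, was not called with a pseudocount of 0.1 (0 members), with no filter (0) or with the replicate block (0), where its log2 difference was 1.07, 0.89 and 0.89, beside 0.89 as reported. For shRNA2 against scramble, no filter gave 0 members, a filter of 5 FPKM gave 2 and the replicate block gave 0. The hairpin libraries alone gave 2 members between the hairpins. Leaving out 1 library gave 0 to 3 members between the hairpins, 0 to 2 for knockdown and 0 to 7 for shRNA2 against scramble. Same-numbered replicates did not deviate together (correlations of -0.0077, -0.150 and 0.0122 between the groups), so the numbers do not show a pairing.

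Over all genes, between the hairpins a filter of 5 FPKM called 46, and leaving out scramble replicate 1 or 2 called 978 or 1029, against 0. For knockdown (15 called), no filter called 0, a filter of 5 FPKM 35, median-of-ratios scaling 28, scaling to other box C/D rows 35, quantile normalization 30 and the replicate block 1, and without scramble replicate 1 there were 507. For shRNA1 against scramble (6 called), a pseudocount of 0.1 called 2, no filter 0, a filter of 5 FPKM 3, scaling to other box C/D rows 11, the replicate block 0, and leaving out 1 library 0 to 1. For shRNA2 against scramble (114 called), no filter called 0, a filter of 5 FPKM 261, quantile normalization 71, no trend 35, the replicate block 0, and leaving out 1 library 0 to 2418.

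Some differences between the hairpins, none of them called, changed sign. Under median-of-ratios scaling UBE3A was 0.061, SNORD115-32 0.011 and SNORD116-29 0.064. Under quantile normalization SNRPN was 0.022, SNURF 0.014, UBE3A 0.082 and SNORD116-29 0.058. Leaving out 1 library at a time gave -0.22 to 0.13 for SNORD115-32, -0.85 to 0.56 for SNORD115-4, -0.14 to 0.36 for SNORD115-45, -0.48 to 0.015 for SNORD115-46, -0.97 to 0.11 for SNORD115-36, -0.24 to 0.23 for SNORD116-29, -0.026 to 0.16 for SNORD116-19 and -0.055 to 0.024 for UBE3A. The cause of these changes was not tested. At a median of 4.5 reads a value, differences between single SNORD115 copies were mostly beyond what the depth resolves.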
